A study of Homo sapiens with 11 samples.

Results

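The genes described here are the core factors of pre-mRNA splicing in Reh cells. They were chosen by symbol: the SF3A and SF3B subunits, the PRPF proteins, the SNRP proteins, the SR proteins SRSF, the HNRNP proteins, the U2AF subunits, and RBM42, which was added by name. A gene was represented by its brightest probe set that is annotated to 1 gene symbol. This gave 63 protein-coding genes of the 19775 genes measured. Of these, 9 are SF3A or SF3B subunits, 11 PRPF, 11 SNRP, 10 SRSF and 19 HNRNP proteins, 2 are U2AF subunits and 1 is RBM42. The choice did not use the measured differences. SRSF2, SRSF9 and HNRNPH2, whose probe sets are shared with other genes, were not analysed here. The noncoding genes HNRNPD-DT and SNRPF-DT and the pseudogene HNRNPA3P1 also match and were set aside.

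Reh is an established human B-cell precursor leukaemia line with the ETV6-RUNX1 fusion. All cells profiled, controls included, had been infected with virus to express miR-125b stably, and infection was read from eGFP. The control group (2 arrays) received scrambled precursor oligo at 66 µM. The miR-99a group (3 arrays) and the miR-100 group (3 arrays) received 66 µM of that oligo, and the combination group (3 arrays) received 33 µM of each. Transfection was repeated after 72 h and cells were harvested 48 h after the repeat. All groups come from 1 line, and what the replicate numbers 1 to 3 mark is not stated. If replicates were not separate cultures, p-values measure only the spread between these arrays, which may be technical.

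Introns are removed by the spliceosome, which assembles on each pre-mRNA from small nuclear ribonucleoproteins (snRNPs). A ring of Sm proteins, encoded by SNRPB, SNRPD1, SNRPD2, SNRPD3, SNRPE, SNRPF and SNRPG, binds the U1, U2, U4 and U5 RNAs. U2AF recognises the polypyrimidine tract and the AG of the intron's end, SF3A and SF3B hold the U2 snRNP on the branch site, and the PRPF proteins include the U5 scaffold PRPF8 and components of the tri-snRNP. SR proteins and hnRNPs bind the transcript and promote or block the use of splice sites. Mutations of SF3B1, U2AF1 and SRSF2 are known from myeloid neoplasms and, for SF3B1, chronic lymphocytic leukaemia.

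The oligos raise microRNAs whose mature sequences are given here, from RefSeq (GRCh38.p14), because the seed decides which transcripts are bound. Capitals mark the seed, bases 2 to 8. The genes lie at chr21:16539101-16539122 on the plus strand (miR-99a), chr11:122152275-122152296 on the minus strand (miR-100) and chr11:122099809-122099830 on the minus strand (miR-125b), each within a long noncoding host gene.
miR-99a-5p: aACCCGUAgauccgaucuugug
miR-100-5p: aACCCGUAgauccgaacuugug
miR-125b-5p: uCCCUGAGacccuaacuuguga
miR-99a and miR-100 share their seed and differ at 1 of 22 positions (U16A, miR-99a base first, counted from the 5′ end). miR-125b has another seed and was present in all groups.

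The array medians lay between 5.95 and 5.984 on the log2 scale, and the arrays correlated at 0.989 to 0.997 over 55 pairs. The 3 treated arrays numbered 3 stood apart from the 6 treated arrays numbered 1 and 2, and control has no array numbered 3. Each comparison with control is therefore given over all 11 arrays and over the 8 arrays of replicates 1 and 2. Of 11 measured genes of B-cell precursors, 10 had a mean of at least 8, led by the terminal transferase gene DNTT at 13.09, with VPREB1 at 5.48. No marker of fibroblasts and epithelium (6 measured), of erythroid cells or platelets (4), of the myeloid lineage (6) or of T and NK cells (7) reached 8. The summed level of the B-precursor list was 14.96 to 15.09 in control, 14.93 to 15.18 in treated replicates 1 and 2, and 15.03 to 15.07 in treated replicate 3. The difference between the 3′ and 5′ probe sets of ACTB was 2.45 to 3.17 and that of GAPDH 0.52 to 0.71. For ACTB the arrays numbered 3 (2.52 to 2.85) lay within the range of the others, and for GAPDH the highest value was that of miR-99a replicate 3. The part of these in the results was not tested. In such bulk samples fewer cells of a type and less RNA per cell cannot be told apart.

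The splicing factors were among the brighter genes on the array. Their median level was 10.6 against 6.4 over all genes, 61 of 63 were at or above the median gene, and 59 were at 8 or above. The HNRNP family had a median of 11.92 and ran from HNRNPLL at 7.77, a regulator of lymphocyte splicing, to HNRNPA2B1 at 12.98. The SNRP family was similar, with a median of 11.74 and a range from SNRPA at 10.3, a protein of the U1 snRNP, to SNRPE at 12.98. The SRSF median was 10.61, with SRSF3 at 12.53 and SRSF12 at 5.24. The SF3A and SF3B subunits had a median of 10.24, from SF3B3 at 8.57 to SF3B6 at 11.95. The PRPF family was dimmer, with a median of 8.85, from PRPF40B at 6.25 to PRPF19 at 9.99. U2AF1 stood at 10.57, U2AF2 at 9.74 and RBM42 at 7.69. Because each probe set binds with its own affinity, levels of different genes are not compared as amounts of RNA.

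Over all 11 arrays, no splicing factor passed limma's test (adjusted p under 0.05) after miR-99a, miR-100 or their combination. No gene of the whole array did either, so that 0.0% of genes were called in each comparison with control. At an unadjusted p under 0.05 there was 1 member with miR-99a, 1 with miR-100, 3 with the combination and 3 for the mean of the treatments. Shares of all genes at that threshold are not given, so these counts show nothing particular to the members. The members' median log2 difference after miR-99a was -0.065, after miR-100 -0.061 and after the combination -0.047. Over all genes it was -0.006, -0.008 and -0.004. In genes with levels of 10 to 12, where 28 members lay, it was -0.068, -0.079 and -0.066, near the members' medians. At 8 to 10 (17 members) it was -0.041, -0.058 and -0.079, and over 12 (14 members) -0.057, -0.037 and 0.083. For the combination the medians of bright genes thus differed in sign by level. Across the mean of the treatments 46 of 63 members had a value below control and 17 above, and the share of all genes is not given for this count.

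The largest difference of a member with 1 oligo was that of PRPF6, a tri-snRNP protein that bridges U5 and U4/U6. Its levels were 8.41 and 8.29 in control and 8.77, 8.85 and 8.81 with miR-99a, so these arrays did not overlap. With miR-100 they were 8.28, 8.47 and 8.71, and with the combination 8.42, 8.68 and 8.77. The log2 difference was 0.46 ± 0.13 (SE; 3 against 2 arrays; limma unadjusted p = 0.00403, adjusted p = 1) with miR-99a and 0.14 ± 0.13 with miR-100. A second probe set of PRPF6 did not show it, and the mean over both probe sets gave 0.23. Downward, HNRNPR, a relative of SYNCRIP, was at 12.26 and 12.34 in control and at 12.17, 11.89 and 12.19 with miR-100. Its log2 difference with miR-100 was -0.22 ± 0.09 (limma unadjusted p = 0.0359, adjusted p = 1). The 3 arrays with miR-100 all lay below control, as they did for 3 members, HNRNPK and HNRNPLL being the others (6.19% of all genes). With miR-99a 11 members lay wholly below control (7.88% of all genes) and 3 wholly above (7.55%). With miR-100 1 member, PRPF40B, lay wholly above (7.18%). With the combination these numbers were 12 (11.4% of all genes) and 2 (9.11%). Shares of this kind among genes as bright as the members are not given.

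Within replicates 1 and 2 a few splicing factors changed. For the mean of the treatments 3 of 63 members passed limma's test, against 1.0% of all genes, and for the combination 6 of 63, against 1.47%. These shares are over all genes, most of them dimmer than the members. Among members with a level of at least 8, 26 of 59 (44.1%) had an unadjusted limma p under 0.05 for the mean, against 41.3% of genes at that level. For the combination it was 19 of 59 (32.2%), against 33.6%. With miR-99a alone and with miR-100 alone 0 members and 0 genes passed in replicates 1 and 2. At an unadjusted limma p under 0.05 there were 14 (22.2%) and 26 (41.3%) of 63 members, against 9.62% and 17.3% of all genes. With a level of at least 8 it was 13 (22.0%) and 23 (39.0%) of 59 members, against 20.9% and 40.3% of genes. With the replicate number as a block over all 11 arrays, 5 members passed for the mean of the treatments (2.56% of all genes). With that block 2 passed for miR-99a (0.0253%), 0 for miR-100 (0.0354%) and 9 for the combination (4.36%). Shares with the block among genes of like level are not given. The replicate number was not taken as a pairing with control, since what it marks is not stated. The deviations of control and same-numbered treated arrays correlated above 0.1 in 3 of 6 pairs. With 2 control arrays the deviations of control are equal and opposite, so these correlations cannot decide on a pairing. Of the members that passed, RBM42, SF3A2 and SNRPG are given first, array by array.

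RBM42 encodes an RNA-binding protein that has been found in the tri-snRNP. It was at 7.42 and 7.61 in control. In replicates 1 and 2 it was at 7.95 and 8.06 in the miR-99a group, 7.85 and 7.69 in the miR-100 group, and 7.99 and 7.90 in the combination group. In replicate 3 it was at 7.40, 7.40 and 7.35. All 6 treated arrays of replicates 1 and 2 were thus above both controls, and all 3 of replicate 3 were below both. Over all arrays the difference for the mean of the treatments was 0.21 ± 0.19 (limma adjusted p = 1), and in replicates 1 and 2 it rose by 0.39 ± 0.07 (adjusted p = 0.0271).

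SF3A2 encodes the SF3a subunit that joins U2 to the branch site. It was at 8.74 and 8.67 in control. With miR-99a it was at 9.20 and 9.15 in replicates 1 and 2, with miR-100 at 9.09 and 8.89, and with the combination at 8.99 and 8.94. The replicate 3 arrays were at 8.47, 8.48 and 8.30. As for RBM42, the treated arrays lay on both sides of control by number, without overlap. The difference was 0.13 ± 0.22 (limma adjusted p = 1) over all arrays, and in replicates 1 and 2 SF3A2 rose by 0.34 ± 0.07 (adjusted p = 0.04). With miR-99a alone it was 0.48 ± 0.09 in replicates 1 and 2, which did not pass (adjusted p = 0.0828), but it passed with the replicate block (0.45, adjusted p = 0.0144), as did RBM42 (0.46, adjusted p = 0.0144).

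SNRPG, a protein of the Sm ring, was at 12.44 and 12.66 in control and at 12.95 and 12.96 in replicates 1 and 2 of the combination. In those replicates it was at 12.76 and 12.76 with miR-99a and at 12.75 and 12.70 with miR-100. The replicate 3 arrays were lower, at 12.07, 12.24 and 12.18. With the combination SNRPG rose by 0.41 ± 0.08 in replicates 1 and 2 (limma adjusted p = 0.0201) and differed by 0.15 ± 0.27 over all arrays (adjusted p = 1). The Sm gene SNRPE also rose with the combination in replicates 1 and 2, by 0.41 ± 0.09 (adjusted p = 0.0301). Its control arrays differed from each other, at 12.80 and 13.14, and a dimmer probe set of SNRPE was called the other way with the replicate block, for the mean of the treatments (-0.41, limma adjusted p = 0.00686; brightest set 0.23, adjusted p = 0.113). HNRNPA0, an hnRNP that binds AU-rich sequence, rose by 0.38 ± 0.08 (adjusted p = 0.0213) and RBM42 by 0.43 ± 0.09 (adjusted p = 0.0201).

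Downward, PRPF18 and SRSF10 passed. PRPF18, a factor of the second catalytic step, was at 8.45 and 8.39 in control, at 8.25, 8.23 and 8.30 with miR-99a, and at 8.13, 7.96 and 8.21 with the combination. With miR-100 it was at 8.09, 8.01 and 8.48, so that of the 9 treated arrays only miR-100 replicate 3 was not below control. It fell by 0.31 for the mean of the treatments in replicates 1 and 2 (SE 0.07, limma adjusted p = 0.0425) and by 0.38 with the combination (SE 0.08, adjusted p = 0.028). Over all arrays its difference with the combination was -0.32 ± 0.12 (unadjusted p = 0.0244, adjusted p = 1). SRSF10, an SR protein that can repress splicing when dephosphorylated, fell by 0.33 with the combination in replicates 1 and 2 (SE 0.08, adjusted p = 0.0468). PRPF38A, needed for activation of the spliceosome, just missed the threshold for the mean of the treatments there (-0.26 ± 0.07, adjusted p = 0.0504) and passed with the replicate block (-0.26, adjusted p = 0.0392). With the block SRSF5 (-0.31, adjusted p = 0.03), PRPF38A (-0.29, adjusted p = 0.0327) and HNRNPL (0.30, adjusted p = 0.0377) also passed with the combination, and SNRPG (0.27, adjusted p = 0.042) for the mean of the treatments.

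**Figure D1:**
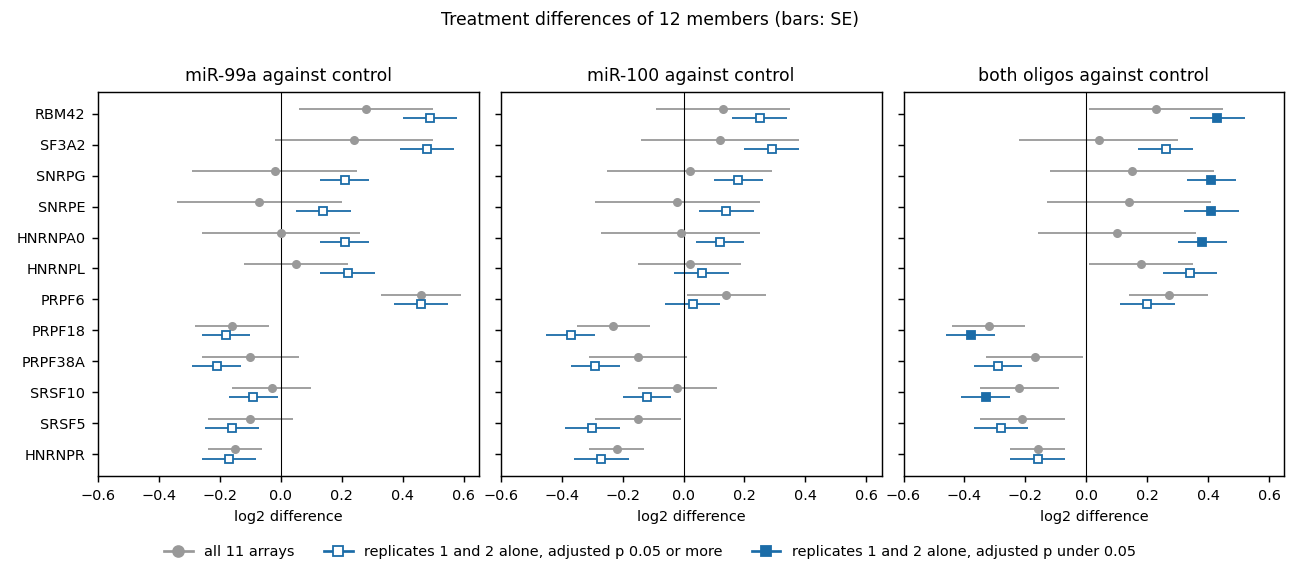
Log2 difference from control (x axis) of 12 splicing factor genes (rows) with miR-99a, miR-100 or both oligos; bars are SE. Grey circles use all 11 arrays, squares the 8 arrays of replicates 1 and 2, filled where the adjusted p was under 0.05: 6 members with both oligos and 0 with either alone, of which RBM42, SNRPG, SNRPE, HNRNPA0, PRPF18 and SRSF10 are shown.

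The treatments did not separate from each other in these genes. For miR-100 against miR-99a 0 of 63 members passed limma's test (0.0% of all genes), the median was -0.017 (all genes -0.007), and 1 had an unadjusted p under 0.05. That member was PRPF6, with a log2 difference of -0.32 ± 0.11 and an interval of -0.57 to -0.07 (unadjusted p = 0.016, adjusted p = 1). Between the combination and the average of the single oligos 0 members passed (0.0% of all genes) and 0 had an unadjusted p under 0.05. Here the smallest p-values were those of HNRNPA2B1 upward (0.16, interval 0.00 to 0.32) and SRSF10 downward (-0.20, interval -0.42 to 0.02). SRSF1, the founding SR protein, differed by 0.13 (interval -0.03 to 0.29). The intervals do not show that the oligos act alike.

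Many splicing factors differed between replicate 3 and replicates 1 and 2. In the 9 treated arrays, with treatment as a term, 39 of 63 splicing factors (61.9%) passed limma's test, 22 higher and 17 lower in replicate 3. Over all genes 29.3% passed, 17.1% higher and 12.2% lower, and 57.0% did among the brighter genes, those whose level was the median or more. In the level ranges of 8 to 10, 10 to 12 and over 12, 14 of 17, 19 of 28 and 5 of 14 members passed, against 64.4%, 72.5% and 64.0% of all genes there. The members' share was thus above that of other genes in the lowest of these ranges, near it in the middle and below it in the highest, and these differences were not tested. The families differed in direction, as given below. After quantile normalization 47 members passed, 32 higher and 15 lower, against 31.4% of all genes, 17.4% higher and 14.0% lower. In that setting 34 of the 39 were called again and 0 of them with the other sign, while 7 SRSF and 12 HNRNP genes were called higher. Of the 39 members, 24 passed in each of the 9 fits that left out 1 treated array, 11 higher and 13 lower. The fit without miR-100 replicate 3 lost 10, the most of any. The arrays of treated replicates 1 and 2 enter both this comparison and those with control.

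**Figure D2:**
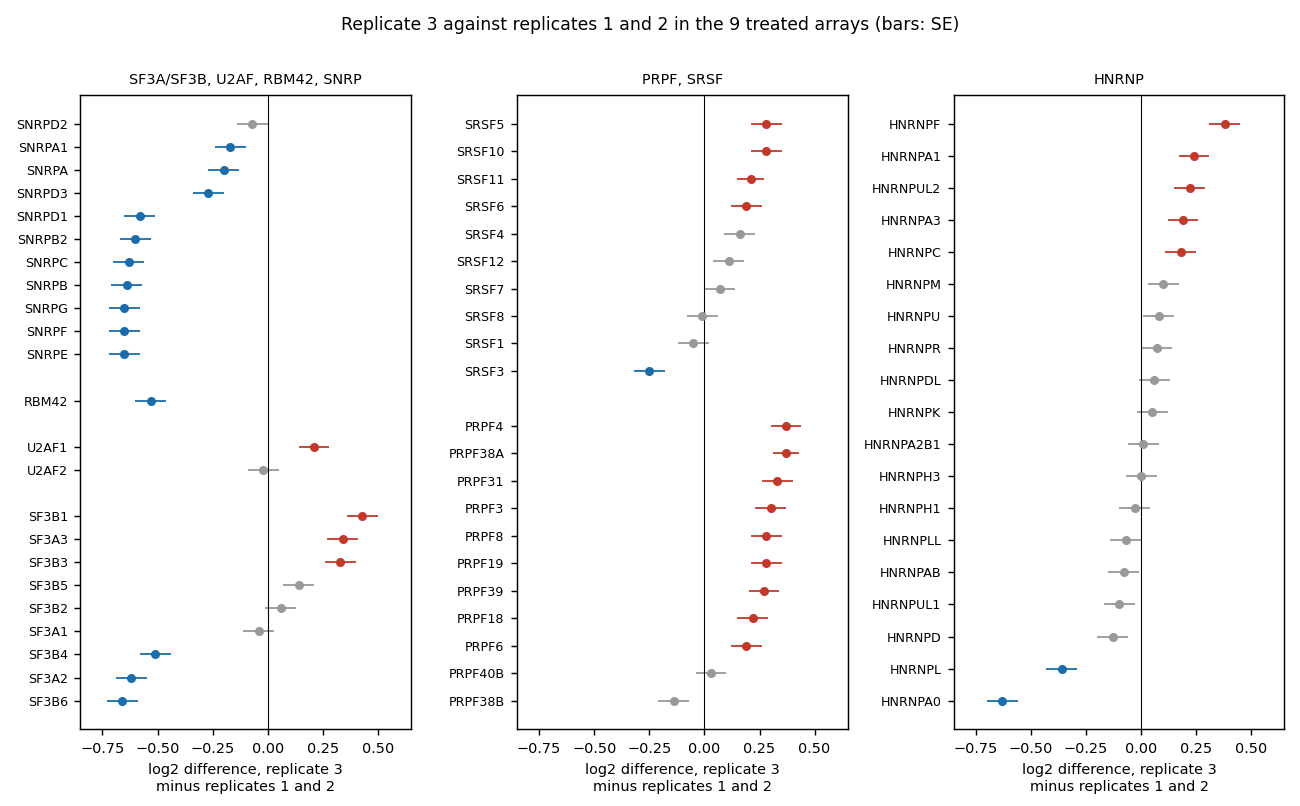
Log2 difference of replicate 3 from replicates 1 and 2 (x axis) for each of the 63 genes by family; points are limma estimates over 9 treated arrays, bars SE. Red and blue mark genes called higher or lower (adjusted p under 0.05), grey those not called. Of 11 SNRP genes 10 are called lower (12.2% of all genes), and of 11 PRPF genes 9 are called higher (17.1%).

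The SNRP genes were lower in replicate 3. Of 11, 10 were called lower and 0 higher, with a family median of -0.597. The median was -0.092 over all genes with levels of 10 to 12 and -0.231 over those above 12. For SNRPG the replicate 3 arrays averaged 12.16 ± 0.09 (SD, n = 3) and the 6 others 12.81 ± 0.11 (SD, n = 6). The log2 difference was -0.65 ± 0.07 (limma adjusted p = 4.76e-11), a ratio of 0.64. The Sm genes SNRPE (-0.65), SNRPF (-0.65), SNRPB (-0.64) and SNRPD1 (-0.58) were lower by about as much, and SNRPD3 by less (-0.27). The exception in the ring was SNRPD2, with -0.07 ± 0.07 (adjusted p = 0.563). The U1 protein gene SNRPC (-0.63) and the U2 protein gene SNRPB2 (-0.60) were also lower, and SNRPA (-0.20) and SNRPA1 (-0.17) were called with smaller differences. The calls of SNRPA1, SNRPA and SNRPD3 were lost in 7, 4 and 2 of the 9 fits that left out an array, among them those lacking combination replicate 3 or miR-99a replicate 3.

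SNRPB, which encodes SmB and SmB′, shows the pattern by array. It was at 11.34 and 11.50 in control and at 11.62, 11.79, 11.73, 11.55, 11.58 and 11.81 in the treated replicates 1 and 2. In replicate 3 it was at 10.90 in the miR-99a group, 11.17 in the miR-100 group and 11.07 in the combination group. The 3 replicate 3 arrays lay below all other arrays, control included. SNRPB2 was at 11.75 and 11.98 in control and at 11.35, 11.43 and 11.33 in replicate 3. By contrast SNRPD2 was at 12.44 and 12.54 in control and at 12.18 to 12.47 in the treated arrays of all numbers. After quantile normalization 8 SNRP genes were called lower (14.0% of all genes) and SNRPD2 was called higher (0.16, limma adjusted p = 0.029). SNRPD3 and SNRPA1 were then not called.

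**Figure D3:**
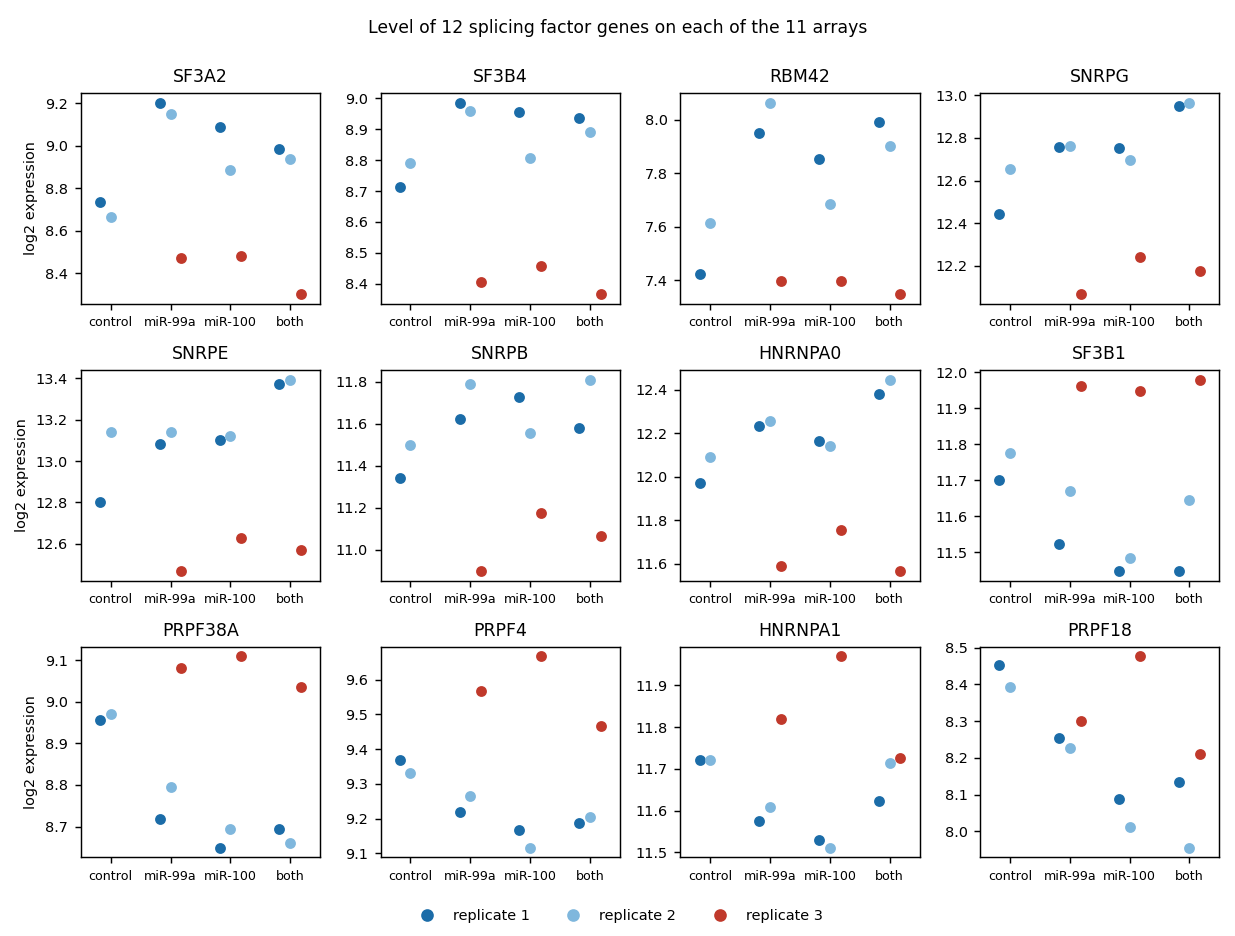
Log2 expression (y axis, own scale in each panel, not starting at 0) of 12 splicing factor genes on the 11 arrays, by group (x axis) and replicate number (colour); each point is 1 array. In SF3A2, SF3B4, RBM42, SNRPG, SNRPB and HNRNPA0 the red points of replicate 3 lie below control and the other treated arrays above it, and in SF3B1, PRPF38A, PRPF4 and HNRNPA1 the order is turned.

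The subunits of SF3A and SF3B, which work as 1 complex on the U2 snRNP, were split. Of 9, 3 were lower in replicate 3, 3 higher and 3 not called. SF3B6, the p14 protein that contacts the branch point adenosine, was lower by the most (-0.66 ± 0.07, limma adjusted p = 7.14e-11), at 11.39 to 11.65 in replicate 3 and 12.10 to 12.31 in the other treated arrays. SF3A2 (-0.62) and SF3B4 (-0.51) were lower too. SF3B1, the large scaffold of SF3b, was higher by 0.43 ± 0.07 (adjusted p = 1.09e-06, ratio 1.34). It was at 11.70 and 11.78 in control and at 11.52, 11.67, 11.45, 11.48, 11.45 and 11.65 in treated replicates 1 and 2. In replicate 3 it was at 11.96, 11.95 and 11.98, above all 8 other arrays. SF3A3 (0.34) and SF3B3 (0.33) were higher as well. SF3A1 (-0.04), SF3B2 (0.06) and SF3B5 (0.14) did not pass.

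The U2AF subunits, which form a heterodimer, were measured separately. U2AF1 was higher in replicate 3 by 0.21 ± 0.07 (limma adjusted p = 0.0137), a call that was lost without miR-100 replicate 3 (0.10, adjusted p = 0.345). U2AF2 was at 9.65 to 9.83 in the treated arrays of all numbers and did not pass (-0.02 ± 0.07, adjusted p = 0.865). RBM42 was lower in replicate 3 by 0.53 on the log2 scale (limma log2 difference -0.53 ± 0.07, adjusted p = 1.61e-08).

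The PRPF genes were higher in replicate 3. Of 11, 9 were called higher and 0 lower, with a median of 0.276, against 0.126 over all genes with levels of 8 to 10. Of those genes 42.4% were called higher and 22.0% lower. PRPF4, a U4/U6 protein, was at 9.37 and 9.33 in control, 9.12 to 9.27 in treated replicates 1 and 2, and 9.57, 9.67 and 9.47 in replicate 3. Its log2 difference was 0.37 ± 0.07 (limma adjusted p = 1.04e-05), a ratio of 1.3. PRPF38A differed by 0.37 ± 0.06 (adjusted p = 7.05e-06), and its 3 probe sets gave 0.37, 0.38 and 0.39. The tri-snRNP genes PRPF31 (0.33) and PRPF3 (0.30), the U5 scaffold PRPF8 (0.28), the ubiquitin ligase PRPF19 (0.28), the U1-associated PRPF39 (0.27), PRPF18 (0.22) and PRPF6 (0.19) were also called. PRPF38B (-0.14) and PRPF40B (0.03) were not. The calls of PRPF18, PRPF19 and PRPF6 were lost without miR-100 replicate 3, and that of PRPF6 also in 4 of the other fits that left out an array.

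The SR proteins moved less. Of 10, 4 were called higher in replicate 3 and 1 lower. SRSF5 (0.28), SRSF10 (0.28), SRSF11 (0.21) and SRSF6 (0.19) were higher. SRSF3, the smallest SR protein, was at 12.60 and 12.59 in control, 12.45 to 12.75 in treated replicates 1 and 2, and 12.41, 12.33 and 12.30 in replicate 3. Its difference was -0.25 ± 0.07 (limma adjusted p = 0.00233), and it was not called without combination replicate 3 (-0.20, adjusted p = 0.0775) or after quantile normalization (-0.03, adjusted p = 0.698). SRSF1 did not pass (-0.05 ± 0.07, limma adjusted p = 0.684) but was called higher after quantile normalization (0.17, adjusted p = 0.0152). A dimmer probe set of SRSF1 was called higher without it (0.43, limma adjusted p = 3.19e-06). Without miR-100 replicate 3 the calls of SRSF5 and SRSF6 were lost, and without miR-99a replicate 3 those of SRSF11 and SRSF6. SRSF6 lost its call in 6 of the 9 such fits.

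Among the hnRNPs most were not called. Of 19, 5 were higher in replicate 3, 2 lower and 12 not called, with a median of 0.047. HNRNPA0 was at 11.97 and 12.09 in control, 12.14 to 12.45 in treated replicates 1 and 2, and 11.59, 11.75 and 11.57 in replicate 3 (-0.63 ± 0.07, limma adjusted p = 2.98e-10). HNRNPL, which binds CA-rich sequence, was lower by less (-0.36 ± 0.07, adjusted p = 4.53e-05). HNRNPF, which binds G-rich sequence, was higher by 0.38 ± 0.07 (adjusted p = 3.34e-05). HNRNPA1, an antagonist of SR proteins, was higher by 0.24 ± 0.07 (adjusted p = 0.00411), and without miR-100 replicate 3 by 0.14 (adjusted p = 0.17). HNRNPC, which masks cryptic exons, was barely called (0.18 ± 0.07, adjusted p = 0.0393) and lost its call in 6 of the 9 fits that left out an array. HNRNPA2B1 (0.01) and HNRNPK (0.05) did not pass, though dimmer sets of HNRNPA2B1 with levels of at least 8 were called higher (0.3 and 0.41). After quantile normalization 12 hnRNP genes were called higher (17.4% of all genes) and 2 lower (14.0%).

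**Figure D4:**
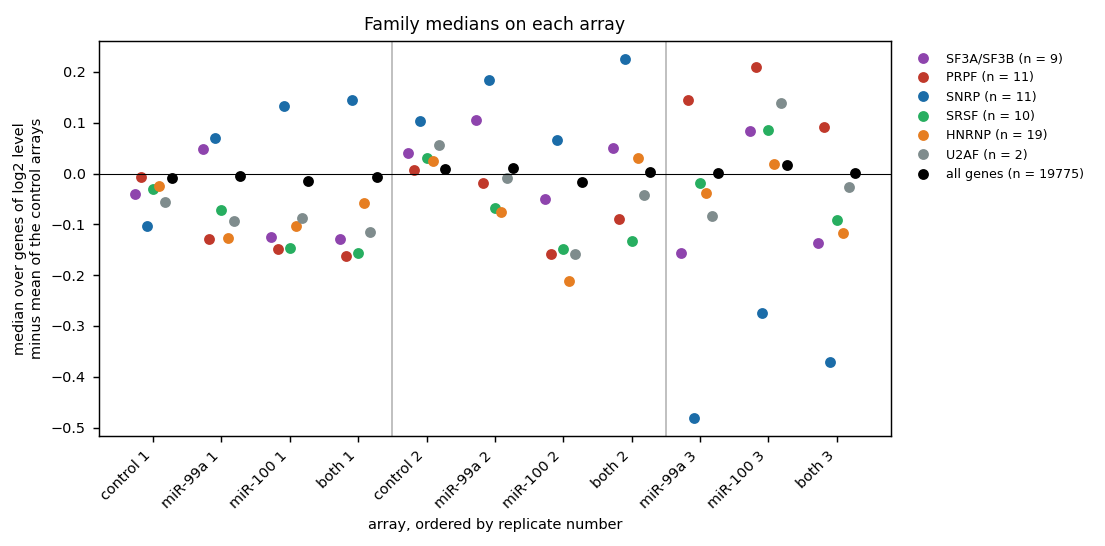
Median over the genes of a family of the log2 level minus the mean of the 2 control arrays (y axis) on each of the 11 arrays, grouped by replicate number (x axis); each point is 1 family on 1 array. The SNRP median runs from 0.066 to 0.226 in the treated arrays numbered 1 and 2 and from -0.481 to -0.274 in those numbered 3, while PRPF runs from -0.162 to -0.018 and from 0.091 to 0.209.

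The 3 arrays numbered 3 lay wholly outside the range of the 6 other treated arrays in 31 members, against 25.9% of all genes. Set against control, the treated arrays of replicates 1 and 2 were all above it in 7 members (5.28% of all genes) and all below it in 15 (10.9%). Those of replicate 3 were all above it in 15 members (18.1% of all genes) and all below it in 20 (17.2%). In 6 members replicates 1 and 2 were above and replicate 3 below control (1.63% of all genes), and in 4 the order was turned (3.13%). These shares are over all genes, most of them dimmer than the members. Shares among genes of like level are not given, so an excess in splicing factors cannot be read from them. In 40 of the 63 members the 3 treatments gave the same direction of the replicate 3 difference, a count without a share of all genes beside it. For SNRPE the log2 difference was -0.64 in the miR-99a arrays, -0.48 in those of miR-100 and -0.81 in those of the combination, and whether the treatments differ in it was not tested. Replicate 2 differed from replicate 1 in 0 of 63 members by limma's test, against 0.587% of all genes. At an unadjusted p under 0.05 there were 9 members, and the share of all genes there is not given. PRPF19 came nearest (0.24 ± 0.06, adjusted p = 0.055).

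Other probe sets of the same genes were compared as a further measurement of the same RNA. The 16 called members with other probe sets at 8 or above had 29 such sets. Of these, 26 went the same way as the brightest set, 14 were called that way and 1 was called the other way, a set of HNRNPA1 (-0.25). All 5 sets of SF3B1 were higher in replicate 3, by 0.37 to 0.49, and the 3 sets of HNRNPA0 were lower (-0.63, -0.46 and -0.55). Both sets of SF3A2 were lower (-0.62 and -0.51), as were both of SNRPB (-0.64 and -0.69). Some members not called by their brightest set had other sets at 8 or above that were called. They were higher in HNRNPA2B1 (0.3 and 0.41), HNRNPU (0.32 and 0.24), HNRNPR (0.31) and HNRNPM (0.27). Such sets were also higher in SRSF7 (0.22 and 0.35) and SRSF1 (0.43, brightest set -0.05), and lower in SF3A1 (-0.18). The remaining members not called had no such set called. Using the mean of all probe sets of a gene, 31 members were called, 16 higher and 15 lower, against 23.9% of all genes, 13.0% higher and 10.9% lower. Of the 31 members 29 were among the 39.

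Other genes of the spliceosome, from lists written with earlier results of these data known, were set beside the families. Of all genes 17.1% were called higher in replicate 3 and 12.2% lower. Among genes with levels of 8 to 10 it was 42.4% and 22.0%, and above a level of 10 more genes were called lower than higher. The levels of the listed genes are not given, and whether the lists exceed genes of like level was not tested. Of the LSm proteins, LSM2 to LSM8 form the ring of the U6 snRNP, the relative of the Sm ring, and the list also holds LSM1. Of 8 measured, 8 were lower in replicate 3, with a median of -0.533, LSM5 (-0.83) and LSM3 (-0.83) by the most. The Prp19 complex and factors of the catalytic steps had 15 of 21 higher and 0 lower, with a median of 0.316, CWC22 (0.51) and SLU7 (0.46) first. Kinases of SR proteins and related proteins had 10 of 17 higher and 0 lower, among them CLK1 (0.43) and SON (0.42).

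The partners of U2 and the branch site went both ways, with 7 of 12 higher and 2 lower and a median of 0.283. PHF5A, the small SF3b subunit that lies outside the symbol rule, was lower by the most (log2 difference -0.82 ± 0.07, limma adjusted p = 3.91e-13), and DDX46 was higher (0.56). The snRNP proteins outside the rule had 8 of 15 higher and 2 lower, with PPIH (-0.42) and SART3 (0.41) first. The SMN complex, which loads the Sm ring onto RNA, had 8 of 15 higher and 3 lower, GEMIN6 (-0.47) and GEMIN2 (-0.41) among the latter. The exon junction complex had 1 of 6 higher and 3 lower, with MAGOHB at -0.70 and SAP18 at -0.40. Other splicing regulators were mixed, with 10 of 29 higher and 8 lower, led by KHSRP (-0.62) and PCBP1 (-0.48). For the mean of the treatments against control over all arrays, 0 genes of these lists were called without a block. With the replicate block the LSm list had 2 of 8 higher (LSM8 and LSM3) and the Prp19 complex 2 of 21 lower (PPIL1 and PLRG1). The U2 partners and the other regulators had 1 higher each, and the snRNP proteins outside the rule and the SMN complex 1 lower each. With this block 0.9% of all genes were called higher and 1.66% lower.

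Promoters were set beside the families because members moved together by number. RefSeq promoters of 300 bases around the gene start (GRCh38.p14) were held for 58 of 63 members. Capitals mark matches on either strand of CCGGAAG (the core of many ETS factor sites), GCATGCGC (NRF1), AAGATGGC (YY1), CCAAT and TATAAA. Shown are the promoters of 3 members lower in replicate 3, each with an ETS match, and of SF3B1, which was higher and has none of the 5. These are examples and do not stand for their sets. RBM42 and SNRPF, also lower, have no ETS match, and SF3A3 and SRSF5, which were higher, have a match.
SNRPG promoter, chr2:70293409-70293708, minus strand: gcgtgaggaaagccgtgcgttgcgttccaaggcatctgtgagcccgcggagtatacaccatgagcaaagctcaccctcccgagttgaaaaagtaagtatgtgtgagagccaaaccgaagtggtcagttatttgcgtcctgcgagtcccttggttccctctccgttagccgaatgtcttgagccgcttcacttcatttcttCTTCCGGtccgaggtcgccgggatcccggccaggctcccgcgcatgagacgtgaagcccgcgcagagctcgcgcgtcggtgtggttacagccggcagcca
SNRPB promoter, chr20:2470740-2471039, minus strand: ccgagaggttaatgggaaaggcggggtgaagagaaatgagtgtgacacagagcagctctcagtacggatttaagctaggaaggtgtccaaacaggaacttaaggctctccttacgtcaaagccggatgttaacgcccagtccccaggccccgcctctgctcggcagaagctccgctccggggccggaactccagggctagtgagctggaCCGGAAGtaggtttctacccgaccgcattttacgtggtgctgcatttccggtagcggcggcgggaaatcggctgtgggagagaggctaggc
SF3A2 promoter, chr19:2236574-2236873, plus strand: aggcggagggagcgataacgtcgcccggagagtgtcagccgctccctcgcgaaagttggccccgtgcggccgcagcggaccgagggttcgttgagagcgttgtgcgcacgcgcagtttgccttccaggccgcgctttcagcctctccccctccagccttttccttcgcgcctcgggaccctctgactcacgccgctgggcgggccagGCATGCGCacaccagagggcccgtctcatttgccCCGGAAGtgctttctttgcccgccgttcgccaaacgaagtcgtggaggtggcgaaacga
SF3B1 promoter, chr2:197434979-197435278, minus strand: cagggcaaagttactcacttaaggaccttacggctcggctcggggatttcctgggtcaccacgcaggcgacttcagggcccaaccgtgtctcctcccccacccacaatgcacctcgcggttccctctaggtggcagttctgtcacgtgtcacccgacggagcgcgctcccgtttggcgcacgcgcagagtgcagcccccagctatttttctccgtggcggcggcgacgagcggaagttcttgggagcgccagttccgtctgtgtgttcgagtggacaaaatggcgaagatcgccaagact
The ETS letters were in 9 of 16 promoters (56.2%) of members lower in replicate 3, in 5 of 18 (27.8%) of those higher and in 7 of 24 (29.2%) of those not called. They were in 14.2% of all protein-coding promoters of that length. CCAAT was in 43.8%, 44.4% and 45.8% of the 3 sets, against 36.4% of all. The NRF1 letters were in 3 of 58 (5.17%), against 4.26% of all, and those of YY1 in 4 (6.9%), against 3.91%. TATAAA was in 6 (10.3%), against 9.63%. A match describes the letters and is no evidence of binding. The members lower in replicate 3 were shorter genes, with a median span of 11.8 kb, against 20.4 kb for those higher, 17.6 kb for those not called and 24.1 kb over all protein-coding genes.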

How the data were processed

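RNA of 11 samples was hybridised to Affymetrix whole-genome arrays. The values deposited by the authors are log2 expression per probe set, read from their range. The methods of summarisation and normalization, not given in the sources used, could affect bright genes such as these. Of 54675 probe sets, 41091 have 1 gene symbol in the platform annotation, and 41037 of these matched RefSeq. For each of 19775 genes the brightest such probe set, by its mean, was used.

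Group means were fitted over all 11 arrays with limma 3.58.1 (lmFit, eBayes) in R 4.3.3. Replicate 3 was compared with replicates 1 and 2 over the 9 treated arrays, with treatment as a term, and replicate 2 with replicate 1 over 8 arrays. P-values are 2-sided and Benjamini-Hochberg adjusted over all genes, and a gene with an adjusted p under 0.05 was called. The fits were tested on simulated data. No filter on dim genes was applied.

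The alternatives were the mean of all probe sets, quantile normalization, only genes at or above the median level, an intensity trend, a replicate block, replicate 3 as a term, replicates 1 and 2 alone, other references for replicate 3, and leaving out each array. Deviations from the group means were correlated between same-numbered arrays: r was 0.168 to 0.816 in 9 pairs from different treatments, and between control and treated arrays -0.152 to 0.438, with 3 of 6 above 0.1. The deviations of the 2 control arrays from their mean are equal and opposite, so the correlations with control cannot decide on a pairing. As its meaning is not stated, the number was not taken as a pairing with control.

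Named were a fixed set of members, those called in a comparison of groups (also with the block) or else the 2 smallest p-values each way, and in each family the 3 largest called differences each way of replicate 3 without overlap within treatments. Members, lists and tests were chosen with earlier results of these data known. Members named beside these complete a count or were chosen after their values were seen. The number of arrays limits the precision.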

Additional observations from a re-analysis of the deposited data

Results flagged for a closer look

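In 10 splicing factors the treated arrays of replicates 1 and 2 all moved one way from control and those of replicate 3 all moved the opposite way. The values are the log2 differences of replicate 3 from replicates 1 and 2 by limma over the 9 treated arrays, all with an adjusted p under 0.05. The order used to pick these genes already sets replicate 3 apart from replicates 1 and 2, so these p-values are no separate support. In 6 members, 1.63% of all genes showing this order, replicates 1 and 2 were above control and replicate 3 below it: SNRPG (-0.65), SNRPB (-0.64), HNRNPA0 (-0.63), SF3A2 (-0.62), RBM42 (-0.53) and SF3B4 (-0.51). In 4 members, against 3.13% of all genes, the order was turned: SF3B1 (0.43), PRPF4 (0.37), PRPF38A (0.37) and HNRNPA1 (0.24). Both shares are over all genes, most of them dimmer than the members, and shares among genes of like level are not given. For HNRNPA1 the margin was small, since combination replicate 3 was at 11.73 and both controls at 11.72. Control has no replicate 3, so treatment and replicate number cannot be told apart there.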

How the results depend on the processing

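Over all arrays 0 members were called in each comparison of groups, also without any 1 array. With the replicate block 5 members were called for the mean of the treatments: RBM42 (0.39, limma adjusted p = 0.00378), SF3A2 (0.34) and SNRPG (0.27) upward and PRPF18 (-0.31) and PRPF38A (-0.26) downward. The block called 2 with miR-99a (RBM42 and SF3A2, both adjusted p = 0.0144) and 9 with the combination, against 2.56%, 0.0253% and 4.36% of all genes. With replicate 3 as a term 2 and 6 were called for the mean and the combination (0.121% and 2.24% of all genes). In replicates 1 and 2 alone it was 3 and 6 (1.0% and 1.47%). These shares are over all genes, most of them dimmer than the members. Replicate 2 against 1 gave 1 call (PRPF19) among genes of median level or more, and 1 with an intensity trend. For replicate 3 the count was 31 to 47 over the alternatives and 31 to 39 without 1 array.

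Values that changed sign were those of members not called in the fit over all arrays of the comparison, without a block. Of these members, SNRPE (0.41) and HNRNPA0 (0.38) were called with the combination in replicates 1 and 2 alone. SNRPG (0.27) was called for the mean of the treatments with the replicate block. The sign of these 3 differences from control thus depended on the fit. With the mean of all probe sets SNRPE was at -0.23 in the combination, SRSF1 at -0.02 in the combination against the single oligos and at 0.04 in replicate 3, and U2AF2 at 0.05 in replicate 3. U2AF2 was at -0.02 in miR-100 against miR-99a in replicates 1 and 2 alone. Against replicate 1 alone, replicate 3 gave U2AF2 0.02 and HNRNPA2B1 -0.04, and after quantile normalization SRSF1 0.17 (adjusted p = 0.0152). Without 1 array in turn, ranges that crossed 0 were -0.06 to 0.15 for SNRPG (mean of the treatments), -0.03 to 0.41 for SNRPE and -0.06 to 0.38 for HNRNPA0 (combination), and, in replicate 3, -0.08 to 0.02 for U2AF2, -0.11 to 0.03 for SRSF1 and -0.07 to 0.11 for HNRNPA2B1. The causes were not tested.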
